A study of Rattus norvegicus with 30 samples.

Results

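SNARE membrane fusion genes were followed in brain RNA-seq of 30 rats. The 35 genes were taken from a list of SNAREs and of the proteins that take SNARE complexes apart, and were looked up by gene symbol. Of them, 34 were among the 17134 genes of the expression table, and Snap23, the ubiquitous partner of plasma membrane syntaxins, was not analysed here. By role the 34 members comprised 4 synaptic, 4 other plasma membrane, 10 Golgi and ER, 13 endosomal, trans-Golgi and lysosomal, and 3 disassembly genes. The rats formed 3 groups of 10 males on a normal diet. HIP rats express human amylin, which forms amyloid, in pancreatic β-cells and develop type-2 diabetes, and WT rats were their littermates. AKO rats lack amylin, and their animal numbers carry the letters KAH in 4 rats and AKO in 6 rats. The study gives an age of more than a year for its HIP and WT RNA-seq rats, and the age of these AKO rats was not given in the sources used here. The samples are labelled frontal cortex, while the study's text calls the tissue both cerebral cortex and hippocampus. The amylin gene itself was not analysed here, so the genotypes rest on the labels. The labels do not say whether rats share a litter, and p-values measure only the spread between these samples.

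SNAREs are small membrane proteins that pull a vesicle and its target membrane together by zipping into a 4-helix bundle. At the synapse, VAMP on the vesicle binds syntaxin-1 and SNAP-25 on the plasma membrane, and synaptotagmin triggers fusion on calcium entry. Other sets of SNAREs serve traffic from the ER to the Golgi, within the Golgi, and among endosomes, the trans-Golgi network and lysosomes. After fusion, NSF with its SNAP adaptors (Napa, Napb) takes the spent complexes apart.

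The level of a gene is given as its DESeq2-normalized count, which is scaled for library size and not for gene length, so levels are compared between rats and not between genes. No member was at 0 in any rat, and the lowest value was 78.0, for Stx2 in HIP replicate 1. In bulk tissue, fewer cells of a type and less RNA per cell cannot be told apart.

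Several libraries stood apart from their group. WT replicate 3 had 17979 normalized counts of Gabra6, a GABA receptor subunit of cerebellar granule cells, and HIP replicate 10 had 1564. HIP replicate 4 had 19081 normalized counts of Tph1, the pineal enzyme of serotonin synthesis. The other 27 libraries had at most 100 of either gene, and results are given with and without these 3. The 5 choroid plexus markers summed to 16213 in HIP replicate 4 and 3834 in AKO replicate 7, against medians of 60.7 in HIP and 65.9 in AKO rats. AKO replicate 7 was kept among the 27. The 6 neocortical layer markers summed to 3064 normalized counts in WT replicate 3, against medians of 11572 in WT, 11314 in HIP and 9446 in AKO rats. Another 10 of the 27 libraries (3 WT, 3 HIP and 4 AKO) held 52.5 to 523 normalized counts of Eomes, a transcription factor of olfactory bulb projection neurons, and the other 17 held 1.63 to 13.6. AKO replicate 5 differed from the rest of its group in 15.0% of the 10931 genes expressed at least as highly as the lowest member, and AKO replicate 1 in 6.50%, by the gap to the nearest rat over the range of the group. Estimated reads were 12.9 to 21.2 M in WT, 13.7 to 16.7 M in HIP and 12.9 to 23.6 M in AKO libraries (M, mega).

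The upstream sequences of Vamp1, Vamp2, Stx1a and Stx2 are shown first. Vamp1 and Vamp2, paralogs that do the same work on the synaptic vesicle, varied very differently between rats. Whether their upstream sequences bear on this was not tested. Of the 34 members, 31 were matched to a promoter in RefSeq (GRCr8, another build than the rn7 of the files), and Snap25, Vamp3 and Vamp7 were not. Each line is the 250 bases before the annotated start, read 5′ to 3′ on the strand of the gene. Capitals mark matches on either strand to the TATA box (searched as the letters TATAAA), the CCAAT box, the GC box (searched as GGGCGG), the cAMP response element (searched as TGACGTCA) and the E-box (searched as CACGTG).
Vamp1 (chr4:159698644-159698893, plus strand): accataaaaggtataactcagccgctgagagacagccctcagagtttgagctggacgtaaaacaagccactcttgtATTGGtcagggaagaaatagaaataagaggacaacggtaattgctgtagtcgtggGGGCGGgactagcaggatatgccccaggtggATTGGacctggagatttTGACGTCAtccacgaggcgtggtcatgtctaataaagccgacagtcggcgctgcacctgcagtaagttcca
Vamp2 (chr10:54292539-54292788, plus strand): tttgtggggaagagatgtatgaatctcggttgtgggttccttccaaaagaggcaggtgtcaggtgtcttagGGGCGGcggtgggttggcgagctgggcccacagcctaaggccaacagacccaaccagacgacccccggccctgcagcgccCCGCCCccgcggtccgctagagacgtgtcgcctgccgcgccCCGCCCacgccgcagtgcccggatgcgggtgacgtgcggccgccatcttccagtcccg
Stx1a (chr12:27306472-27306721, minus strand): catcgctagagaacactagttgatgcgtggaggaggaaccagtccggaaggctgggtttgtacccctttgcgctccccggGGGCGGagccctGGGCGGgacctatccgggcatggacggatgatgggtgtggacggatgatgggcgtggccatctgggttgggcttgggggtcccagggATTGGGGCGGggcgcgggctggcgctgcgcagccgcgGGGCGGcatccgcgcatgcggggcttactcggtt
Stx2 (chr12:33325619-33325868, plus strand): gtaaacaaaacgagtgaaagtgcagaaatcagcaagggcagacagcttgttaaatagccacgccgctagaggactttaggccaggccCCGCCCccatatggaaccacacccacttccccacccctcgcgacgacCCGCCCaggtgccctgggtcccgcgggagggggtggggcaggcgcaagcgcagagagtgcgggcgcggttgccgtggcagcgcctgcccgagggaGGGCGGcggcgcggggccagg

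GGGCGG was present upstream of 24 of the 31 members (77.4%), against 54.4% of the 12832 genes of the expression table with a promoter and 30.5% of all 33469 promoters. CCAAT was present in 10 members (32.3%, against 34.01%), CACGTG in 4 (12.9%, against 7.60%) and TATAAA in 0, against 7.00%. TGACGTCA was found upstream of Vamp1 and Napa alone among the 31 members, in 6.45% against 2.61%. The 250 bases of Vamp1 had 50.4% G and C, those of Vamp2 68.0%, of Stx1a 68.4% and of Stx2 68.0%. In the Stx1a window a CCAAT and a GGGCGG match overlap by 1 base. These matches describe letters in a window and say nothing of factor binding.

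Vamp1, the synaptobrevin of fast synapses in spinal cord, brainstem and parts of the forebrain, varied most of all members among the 27 libraries. It ran from 2653 in WT replicate 8 over a median of 5847 to 11900 in WT replicate 4, a 4.49-fold range with a coefficient of variation of 42.8%. Vamp2, the main synaptobrevin of forebrain vesicles, ran from 22543 to 35744, a 1.59-fold range with a coefficient of variation of 10.7%. The ratio of Vamp1 to Vamp2 within a library went from 0.101 to 0.472 over the 27, with a median of 0.196.

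Most low Vamp1 values went with the olfactory bulb signal. In the 10 libraries with Eomes above 50, Vamp1 had a lowest value of 2653, a median of 3724 and a highest value of 5463. In the 17 with less Eomes it had a lowest value of 3974, a median of 8693 and a highest value of 11900, so the sets overlapped only between 3974 and 5463. The libraries with less Eomes in that overlap were AKO replicates 4, 7 and 10, at 4691, 3974 and 4885. The Vamp1 median of the first set was 0.428 of that of the second, the lowest such ratio of all members. Snap25 and Stx1a followed at 0.743 and 0.742, Snap47 at 0.768 and Napa at 0.813. Vamp2, by contrast, had medians of 26851 and 26719, a ratio of 1.005. Stx3, a syntaxin of apical membranes and ribbon synapses, was at 1.32 and Stx2 at 1.30. These sets of libraries were defined from the data, mix all 3 groups and are described without a test. Whether tissue composition accounts for the spread of Vamp1 was not tested.

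**Figure D1:**
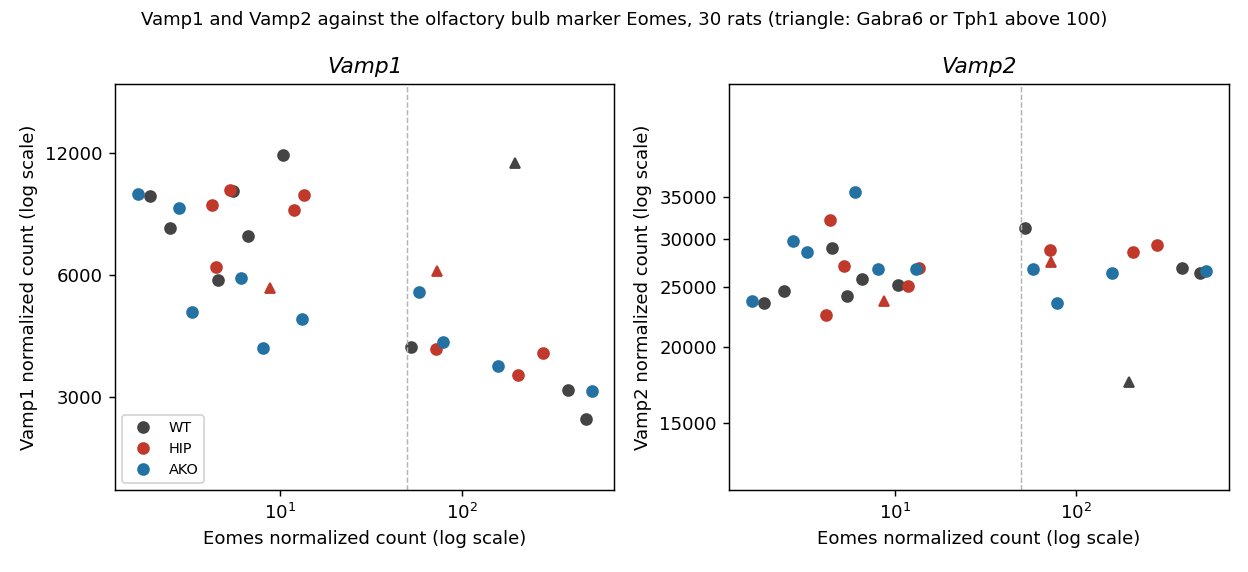
Normalized counts of Vamp1 (left) and Vamp2 (right) against Eomes in 30 rats, all axes on a log scale, with 1 point per rat coloured by group and triangles for the 3 libraries with Gabra6 or Tph1 above 100. Right of the dashed line at 50, the circles of Vamp1 lie between 2653 and 5463, while those of Vamp2, between 23587 and 31163, lie inside the range of the circles on the left.

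Endosomal and Golgi members were steadier. Among the 27 libraries the median coefficient of variation was 21.0% for synaptic, 19.9% for other plasma membrane, 18.5% for disassembly, 12.7% for Golgi and ER and 11.9% for endosomal, trans-Golgi and lysosomal members, beside 15.3% for the 10931 genes expressed at least as highly as the lowest member. Gosr2, the membrin of ER to Golgi transport, was the steadiest member. It ran from 1323 over a median of 1423 to 1566, a coefficient of variation of 4.91%. Stx12, an endosomal syntaxin (5.91%), and Stx6, a trans-Golgi syntaxin (6.48%), came next.

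The synaptic level was then set against the Golgi and endosomal level in each rat, as the mean log2(normalized count + 1) of the 4 synaptic members minus that of the 23 Golgi, ER, endosomal, trans-Golgi and lysosomal members. In WT rats the difference had a lowest value of 3.65, a median of 4.68 and a highest value of 4.996. In HIP rats these were 4.30, 4.73 and 4.94, and in AKO rats 4.22, 4.54 and 4.92. The 3 groups overlapped over most of their ranges, and WT replicate 3 lay below all other rats. Without the 3 libraries with Gabra6 or Tph1, the medians were 4.75 in 9 WT rats, 4.74 in 8 HIP rats and 4.54 in 10 AKO rats, and the WT range began at 4.14. The Golgi and endosomal mean by itself had medians of 9.32 in WT, 9.34 in HIP and 9.30 in AKO rats. These are descriptions with no test.

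**Figure D2:**
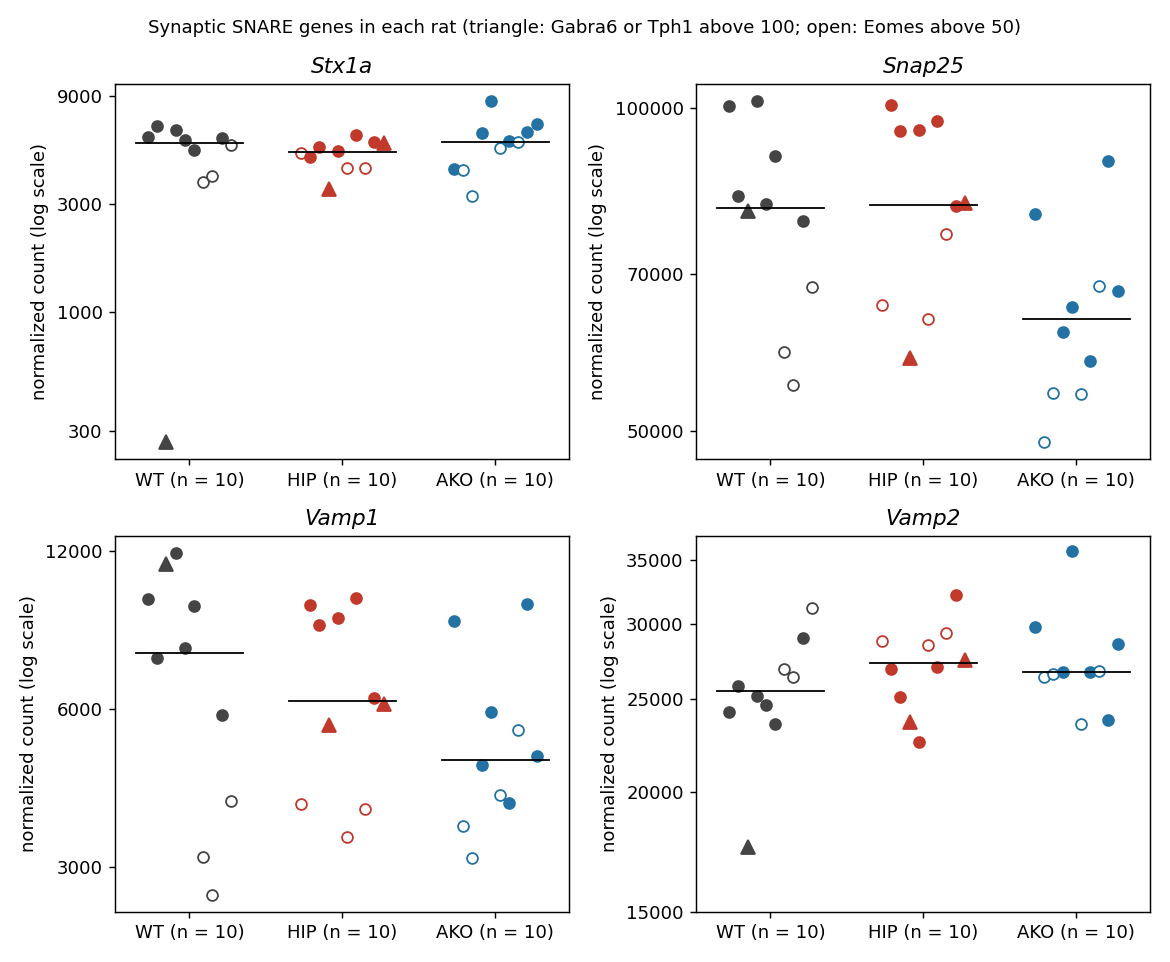
Normalized counts of Stx1a, Snap25, Vamp1 and Vamp2 on log axes in 10 WT, 10 HIP and 10 AKO rats, with 1 symbol per rat and a line at the group median. Triangles are the 3 libraries with Gabra6 or Tph1 above 100, open circles those of the remaining libraries with Eomes above 50. Stx1a is at 268 in 1 WT rat, and most open circles of Vamp1 lie at the bottom of their group.

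The effect of human amylin was examined first, in HIP against WT rats. No member had an unadjusted p below 0.05 with limma, where 2.57% of 17085 genes did, and none had an adjusted p below 0.05 (0% of all genes). The median log2 fold change of the members was 0.02, beside 0.00 for all genes tested. Above 0 were 20 members (58.8%), beside 50.6% of all genes, and 14 were below. By role, 3 of 4 synaptic, 2 of 4 other plasma membrane, 3 of 10 Golgi and ER, 10 of 13 endosomal and 2 of 3 disassembly members were above 0. The median of the endosomal, trans-Golgi and lysosomal members was only 0.04, and these signs were not tested.

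Snap25, the plasma membrane SNARE that gives the synaptic complex 2 of its helices, had a lowest value of 55161, a median of 80749 and a highest value of 101529 in WT rats. In HIP rats these were 58513, 81281 and 100657, and the groups overlapped almost fully. Between the groups it was 0.03 on the log2 scale, with a 95% interval from -0.24 to 0.31. Vamp2 had a log2 fold change of 0.10 (interval -0.08 to 0.29) between groups with medians of 25520 in WT and 27265 in HIP rats, and of 0.043 without WT replicate 3. Vamp1 had one of -0.08 (interval -0.67 to 0.51), with medians of 7676 and 6220. The intervals of Snap25 and Vamp2 exclude a change of 1 on the log2 scale in either direction, and so does that of Vamp1.

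Stx1a, the syntaxin of the presynaptic membrane, depended on 1 library. Its level was 268 in WT replicate 3 and had a median of 5585 and a highest value of 6634 over the 10 WT rats. HIP rats had a lowest value of 3491, a median of 5083 and a highest value of 6030. The log2 fold change was 0.31 (interval -0.55 to 1.17) over all rats and -0.12 without WT replicate 3. Neither value passed the test.

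Vti1a, which pairs with Stx6 at the trans-Golgi network, had a lowest value of 727, a median of 1045 and a highest value of 1081 in WT rats. In HIP rats these were 829, 1115 and 1232, and 6 of 10 HIP rats were above every WT rat. HIP exceeded WT by 0.13 on the log2 scale (p = 0.0965 with limma). Gosr2 had the smallest p of all members in this comparison, with a log2 fold change of 0.10 (p = 0.0923 with limma). The lowest WT values of both genes were those of WT replicate 3. Without it, Vti1a was at 0.081 (p = 0.198) and Gosr2 at 0.057 (p = 0.183 with limma).

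Without the 3 libraries, 2 members (5.88%) had an unadjusted p below 0.05, where 3.78% of 16978 genes did, and none had an adjusted p below 0.05 (0% of all genes). Vti1a was higher in HIP rats by 0.13 on the log2 scale (p = 0.0177, adjusted p = 0.9997 with limma). Napb, the brain form of the adaptor of NSF, was higher by 0.20 (p = 0.0492, adjusted p = 0.9997 with limma). WT rats had Napb values from 5606 over a median of 6758 to 8026 in 9 rats, and HIP rats from 5884 over 7570 to 9643 in 8 rats. HIP replicate 4, left out here, had the lowest Napb of the HIP rats at 4422. A pair of calls among 34 is too close to the share over all genes to be read as a result about the members.

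The loss of amylin was examined in AKO against WT rats, with the same WT rats as above. The sources used here do not say that AKO rats were littermates of the WT or HIP rats, nor give their age. In comparisons with AKO rats, genotype therefore cannot be told apart from differences of breeding or age. With limma, 3 of 34 members (8.82%) had an unadjusted p below 0.05, where 9.34% of 17058 genes did, and 0 members had an adjusted p below 0.05, where 0.0997% of genes did. The share of members was not above that of all genes here, but the counts depended on the setting. Sample quality weights gave 11 of 34 members beside 23% of all genes. Below the adjusted threshold were 2 members, where 857 of 17058 genes were. The median log2 fold change was -0.03 over the members and 0.00 over all genes tested.

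Snap25 was lower in AKO rats. Its lowest value was 48853, its median 63578 and its highest value 89133, against 55161, 80749 and 101529 in WT rats. Of the AKO rats, 1 was above the WT median and 3 were below every WT rat. The log2 fold change was -0.30 ± 0.13 (SE, p = 0.0315, adjusted p = 0.483 with limma), and it was -0.29 without WT replicate 3. Left out 1 at a time, the rats gave -0.35 to -0.25, and the unadjusted p stayed below 0.05 in 13 of 20 cases. AKO libraries also had lower medians of the summed neocortical layer markers (9446 against 11572) and higher medians of the 4 summed olfactory bulb markers (885 against 269) than WT libraries. The ranges overlapped widely. Bulb sums ran from 208 to 9288 in AKO and from 198 to 10060 in WT libraries. Neocortical sums ran from 6483 to 13107 and from 3064 to 14917. With the mean levels of both marker lists as covariates and the 3 libraries left out, the Snap25 log2 fold change was -0.12 (p = 0.148 with limma). Whether tissue composition accounts for the Snap25 difference was not tested.

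Vamp7, the SNARE of late endosomes, lysosomes and neurite outgrowth, had the smallest p of the members. It had a lowest value of 714, a median of 868 and a highest value of 912 in AKO rats and 822, 976 and 1147 in WT rats. No AKO rat was above the WT median, and 7 of 10 WT rats were above every AKO rat. On the log2 scale the difference was -0.19 ± 0.07 (SE, p = 0.00958, adjusted p = 0.375 with limma). Leaving out any 1 rat kept it between -0.22 and -0.16. With the marker lists as covariates it was -0.13 (p = 0.0764 with limma).

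Stx2, a syntaxin of the plasma membrane outside the synapse, went the other way. AKO rats had a lowest value of 122, a median of 146.5 and a highest value of 201, and WT rats 87.8, 116 and 179. All 10 AKO rats were above the WT median, while 3 WT rats were above the AKO median. The log2 fold change was 0.29 ± 0.14 (SE, p = 0.0441, adjusted p = 0.520 with limma), and without the 3 libraries it was 0.35 (p = 0.0130, adjusted p = 0.359 with limma). With the marker lists as covariates it was 0.33 (p = 0.0109, adjusted p = 0.617 with limma). Left out 1 at a time, the 20 rats gave 0.24 to 0.35, and the unadjusted p stayed below 0.05 in 9 of 20 cases, with a largest p of 0.0904 with limma.

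For the other synaptic members, the log2 fold change in AKO against WT rats was 0.45 for Stx1a (interval -0.42 to 1.33), and 0.02 without WT replicate 3. It was -0.36 for Vamp1 (interval -0.94 to 0.21), with medians of 4788 in AKO and 7676 in WT rats. It was 0.12 for Vamp2 (interval -0.08 to 0.31), and 0.057 without WT replicate 3. With the marker lists as covariates both signs turned, to 0.048 for Vamp1 and -0.082 for Vamp2. Vti1a had a value of -0.04 and Gosr2 of 0.07 (-0.085 and 0.027 without WT replicate 3). Without the 3 libraries, 3 members passed at an unadjusted p below 0.05, where 10.3% of 17025 genes did, and 0 at an adjusted p below 0.05, where 0.123% of genes did.

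The third comparison set HIP against AKO rats. It uses the same HIP and AKO rats as the 2 above, so it is not a separate line of evidence. With limma, 5 of 34 members (14.7%) had an unadjusted p below 0.05, where 12.7% of 17092 genes did, and 0 had an adjusted p below 0.05, where 0.17% of genes did. The median log2 fold change was 0.04 over the members, beside 0.00 over all genes.

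Stx2 had a lowest value of 78.0, a median of 107 and a highest value of 140.98 in HIP rats, and 122, 146.5 and 201 in AKO rats. No HIP rat was above the AKO median, and 7 of 10 HIP rats were below every AKO rat. The log2 fold change, HIP minus AKO, was -0.50 ± 0.12 (SE, p = 0.000357, adjusted p = 0.0939 with limma). Leaving out any 1 rat kept it between -0.55 and -0.45. It was -0.49 with the marker lists as covariates and the 3 libraries left out (p = 0.00496, adjusted p = 0.895 with limma).

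Vamp7 had a lowest value of 796, a median of 1075 and a highest value of 1170 in HIP rats, and 714, 868 and 912 in AKO rats. Of the 10 HIP rats, 8 were above every AKO rat, and the lowest HIP value was that of HIP replicate 4. As a log2 fold change this was 0.29 ± 0.07 (SE, p = 0.000384, adjusted p = 0.0968 with limma). Without the 3 libraries it was 0.32 (p = 4.99e-05, adjusted p = 0.0307 with limma), and Vamp7 was then the 1 member below the adjusted threshold. With the marker lists as covariates it was 0.25 (p = 0.00825, adjusted p = 0.895 with limma).

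Snap25 was higher in HIP than in AKO rats by 0.33 ± 0.12 on the log2 scale (SE, p = 0.0118, adjusted p = 0.268 with limma), with 9 of 10 HIP rats above the AKO median. With the marker lists as covariates the difference was 0.19 (p = 0.0722 with limma). Over all HIP and AKO rats the log2 fold change was -0.14 for Stx1a (interval -0.42 to 0.14) and 0.28 for Vamp1 (interval -0.18 to 0.75). For Vamp2 it was -0.01 (interval -0.18 to 0.15). Vti1a was higher by 0.17 (p = 0.0217, adjusted p = 0.315 with limma), with 7 of 10 HIP rats above every AKO rat. With the covariates it was 0.10 (p = 0.219 with limma). Vamp4, an endosome to trans-Golgi SNARE, had medians of 252 in HIP and 223 in AKO rats. Its log2 fold change was 0.18 (p = 0.0392, adjusted p = 0.365 with limma), and without AKO replicate 5, which had the lowest AKO value at 190, it was 0.16 (p = 0.0643 with limma). Over all 20 single rats left out, the unadjusted p of Vamp4 stayed below 0.05 in 10 cases. Without the 3 libraries the Vamp4 log2 fold change was 0.21 (p = 0.0238, adjusted p = 0.264 with limma). Adding the covariates to that setting gave 0.26 (p = 0.0436, adjusted p = 0.9996 with limma).

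Without the 3 libraries, 7 of 34 members (20.6%) had an unadjusted p below 0.05 in HIP against AKO rats, where 15.1% of 17024 genes did. The adjusted threshold was passed by 1 member, where 0.258% of genes passed. Of the 7, Snap25, Vti1a, Vamp4, Vamp7 and Napb were higher in HIP rats, and Stx2 and Vamp8 were lower. Vamp8, a SNARE of late endosomes and secretory granules, had a log2 fold change of -0.30 (p = 0.0237, adjusted p = 0.264 with limma) and was named after its values were seen. HIP replicate 4 alone had 454 normalized counts of Vamp8, against 151.4 to 307.4 in the 27 libraries.

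**Figure D3:**
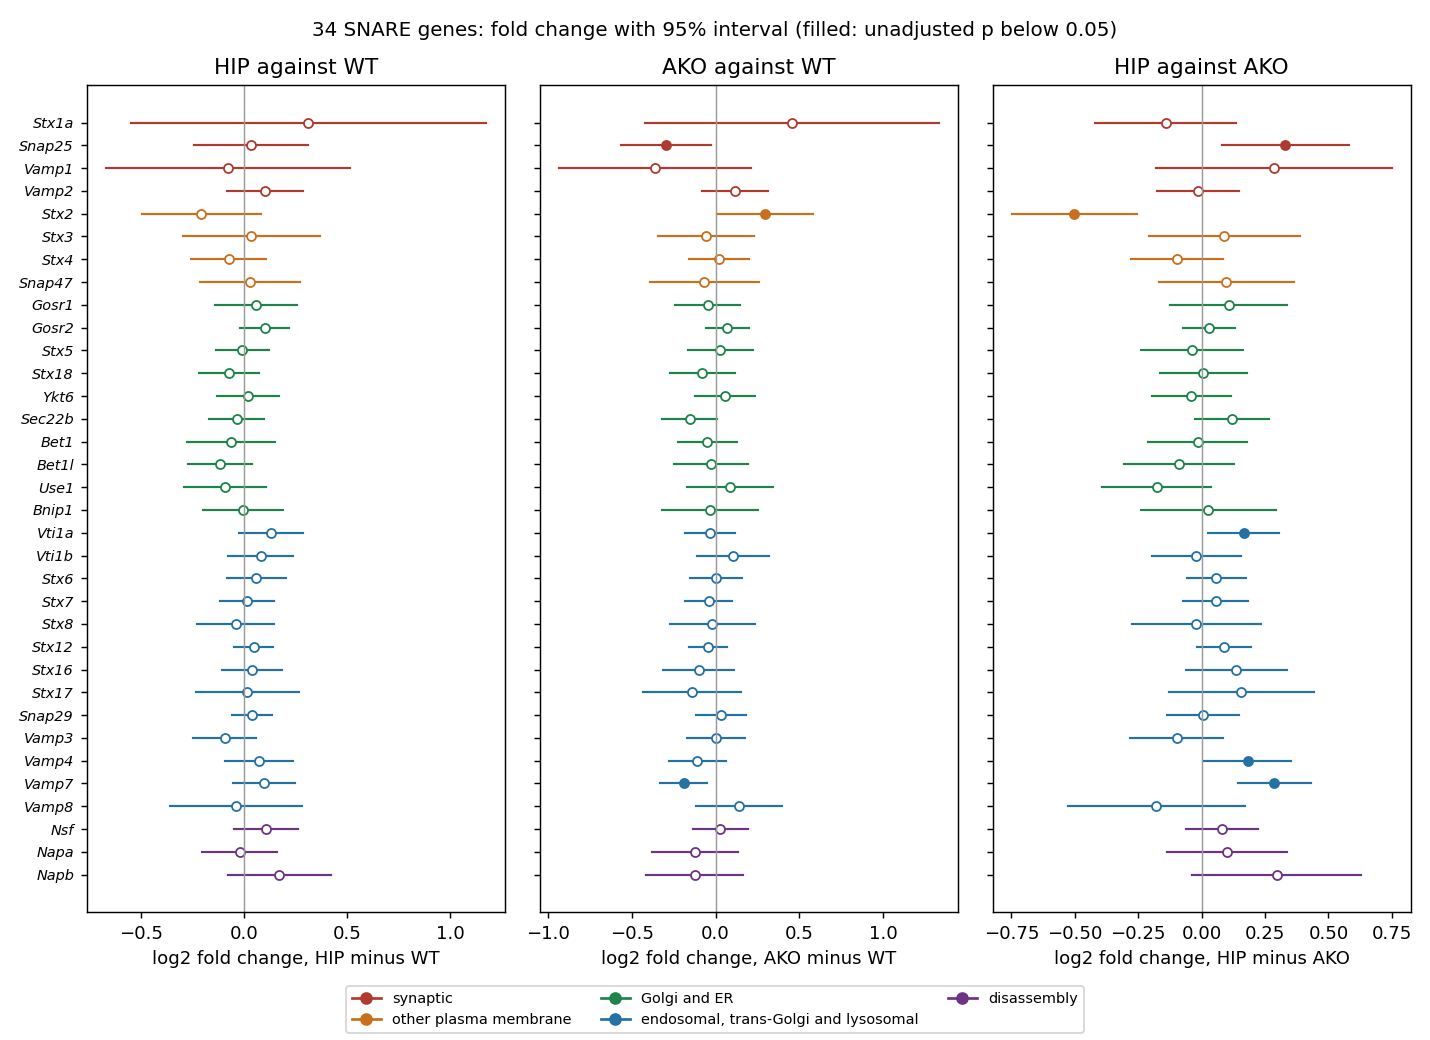
Log2 fold change of the 34 members with its 95% interval from limma, coloured by role, for HIP against WT, AKO against WT and HIP against AKO rats, 10 per group. Filled points have an unadjusted p below 0.05. There are 0 in the left panel, 3 in the middle and 5 on the right.

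**Figure D4:**
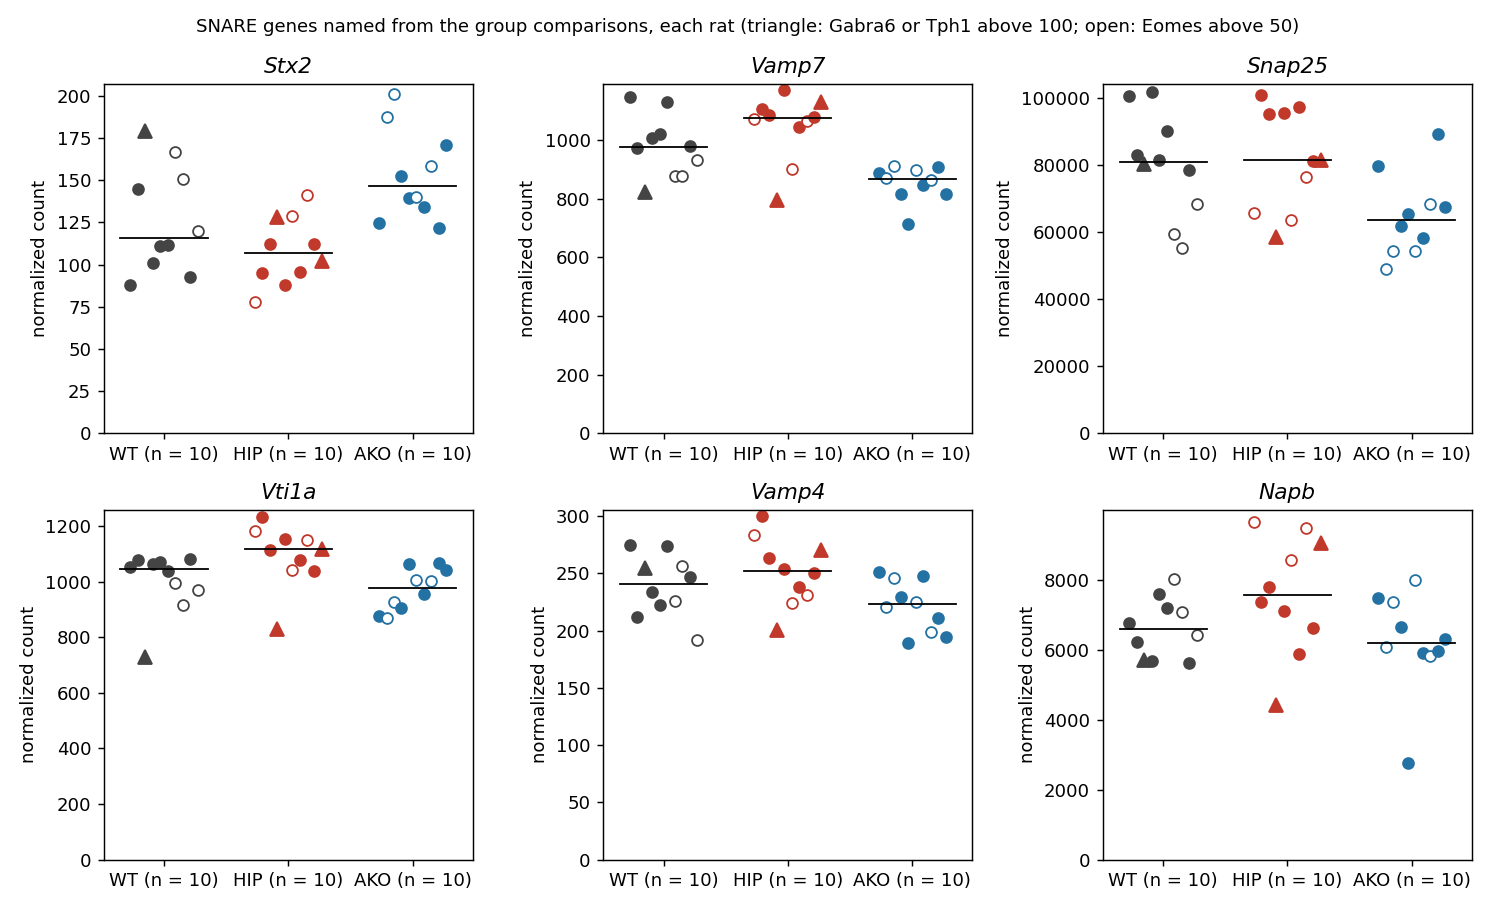
Normalized counts of Stx2, Vamp7, Snap25, Vti1a, Vamp4 and Napb in each of 10 WT, 10 HIP and 10 AKO rats, on axes from 0, with a line at the group median. Triangles are the 3 libraries with Gabra6 or Tph1 above 100, open circles the remaining libraries with Eomes above 50. For Vamp7, 8 HIP rats lie above all AKO rats, and for Stx2, 7 HIP rats lie below all AKO rats.

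The 2 sets of AKO animal numbers were also compared. Vamp7 was 843 ± 86.6 (SD) in 4 KAH rats and 860 ± 42.1 in 6 AKO-numbered rats. Stx2 was 148.02 ± 27.1 and 156.5 ± 28.04, and Snap25 was 62008 ± 13648 and 66545 ± 12295. For these 3 genes the sets differed by less than their SDs. Against WT rats, 0 members had an unadjusted p below 0.05 with the KAH rats alone, beside 10.5% of all genes, and 2 of 34 with the AKO-numbered rats alone, beside 7.45%.

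The regulators around the SNAREs were counted in the same fits. Of 24 synaptic regulators (Munc18, Munc13, synaptotagmin, complexin, Rab3 and RIM genes among them), 0 had an unadjusted p below 0.05 in any of the 3 comparisons over all rats. Of 39 SM proteins and tethers of other compartments, 0 did in HIP against WT (beside 2.57% of all genes), 5 in AKO against WT (12.8%, beside 9.34%) and 6 in HIP against AKO (15.4%, beside 12.7%), shares near those of all genes, and none of the 63 had an adjusted p below 0.05. Without the 3 libraries with Gabra6 or Tph1 above 100, 1 of the 39 did in HIP against WT rats, beside 3.78% of all genes. It was Exoc6 (p = 0.0471 with limma). In HIP against AKO rats the regulators Napg, Rims2 and Syt1 then did (p = 0.0283, 0.0343 and 0.0460 with limma), beside 15.1% of all genes. The smallest p of the tethers there was that of Exoc6 (p = 0.00124, adjusted p = 0.121 with limma). Vps52, a subunit of the GARP tether that works with Stx6, Vti1a and Vamp4 at the trans-Golgi network, had medians of 1617 in WT, 1577 in HIP and 1948 in AKO rats. The log2 fold change of Vps52 was 0.23 in AKO against WT (p = 0.0231, adjusted p = 0.447 with limma) and -0.30 in HIP against AKO rats (p = 0.00160, adjusted p = 0.152 with limma). The other subunits, named after their values were seen, did not share a direction: in HIP against AKO rats Vps51 was at -0.18 (p = 0.0444), Vps53 at 0.04 (p = 0.589) and Vps54 at 0.19 (p = 0.0347 with limma). In AKO against WT rats they were at 0.12 (p = 0.148), 0.06 (p = 0.522) and -0.21 (p = 0.0291 with limma).

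Among the other partners, Cog6, of the Golgi tether COG, was at -0.22 in AKO against WT rats (p = 0.00936, adjusted p = 0.371 with limma). Golga2, the cis-Golgi matrix protein GM130, was at -0.15 (p = 0.0248, adjusted p = 0.456 with limma). In HIP against AKO rats the exocyst subunits Exoc6 and Exoc4 were at 0.22 (p = 0.0165) and 0.15 (p = 0.0308 with limma), and neither passed after adjustment. In HIP against WT rats the smallest p of the partners were those of Vps18 (-0.09, p = 0.112), Exoc6 (0.18, p = 0.149) and Vps45 (0.09, p = 0.151 with limma).

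Members that act in 1 fusion step were compared rat by rat, over deviations of the log2 values from the group mean in the 27 libraries. Of 9 pairs, Snap25 and Stx1a had a Pearson r of 0.53 (permutation p = 0.00378, adjusted p = 0.0170) and a Spearman rho of 0.52 (permutation p = 0.00607, adjusted p = 0.0519). Within the 17 libraries with little Eomes the r was -0.23 (permutation p = 0.376), and within the 10 with more it was 0.53 (permutation p = 0.115), so the relation did not hold within both sets. Gosr1 and Bet1l, partners in traffic within the Golgi, had an r of -0.55 (permutation p = 0.00318, adjusted p = 0.0170) and a rho of -0.46 (permutation p = 0.0159, adjusted p = 0.0519). The Gosr1 entry carries more than 1 Ensembl gene identifier under its symbol. Without the 2 rats farthest from the median of Gosr1 the r was -0.38 (permutation p = 0.0593). It was -0.45 within the 17 libraries (permutation p = 0.0677) and -0.49 within the 10 (permutation p = 0.148). Without AKO replicates 1 and 5 it was -0.27 (permutation p = 0.187), and that of Snap25 and Stx1a was 0.68 (permutation p = 0.00012, adjusted p = 0.00108).

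Of the other pairs, Stx6 and Vti1a had an r of 0.45 (adjusted permutation p = 0.0555). It was -0.04 within the 17 libraries (adjusted permutation p = 0.879) and 0.88 within the 10 (adjusted permutation p = 0.00108). Stx7 and Vti1b, of the endosome, had an r of 0.32 (adjusted permutation p = 0.175). It was 0.27 within the 17 (adjusted permutation p = 0.454) and 0.95 within the 10 (adjusted permutation p = 0.00054). For Stx18 and Use1, of the ER, it was 0.43 (adjusted permutation p = 0.0584), and for Nsf and Napb 0.17 (adjusted permutation p = 0.436). Snap25 and Vamp2 had an r of -0.28, Vamp1 and Vamp2 of -0.31 and Stx5 and Gosr2 of 0.09, with adjusted permutation p-values of 0.212, 0.175 and 0.660.

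The libraries that stood apart were finally read gene by gene. In WT replicate 3, 3 members were above and 7 below all 27 other libraries (29.4% of members, beside 43.5% of 10931 genes). Stx1a was at 268, against 3264 to 8566 in the 27, a value 20.3-fold below their median. Vamp1 was at 11338, 1.94 times the median, while Vamp2 was at 17517, below all 27. Stx3 was above all 27 at 446 and Use1 inside their range at 725, while Stx17 and Snap47 were at 104 and 700.

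HIP replicate 4 had 3 members above and 1 below the 27 libraries (11.8%, beside 11.4% of all those genes). The highest ratios to the median were those of Vamp8 (2.45), Stx3 (1.92) and Stx5 (1.31), and the lowest those of Stx17 (0.6253), Stx1a (0.641) and Gosr1 (0.643). HIP replicate 10 had 1 member above and 1 below (5.88%, beside 9.26%). Its highest ratios were those of Napb (1.34), Vamp7 (1.21) and Vamp4 (1.16), and its lowest those of Vamp3 (0.787), Stx8 (0.804) and Bnip1 (0.817).

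AKO replicate 5 held no high Gabra6 or Tph1, yet 13 members were above and 6 below the other 26 libraries, 55.9% of members beside 54.8% of 10931 genes. Bnip1 and Use1, both of the ER SNARE complex, were at 1.89 and 1.65 times the median, Stx8 at 1.87, and Stx1a, at 8566, at 1.58. Napb, at 2763, was at 0.400 of the median while Napa, at 7173, was at 1.51, and Stx17, the autophagosomal syntaxin, was at 0.507. Members lay on both sides in that library, and the cause was not tested. Leaving out AKO replicates 1 and 5 together with the 3 libraries gave 5 members with an unadjusted p below 0.05 in AKO against WT (12.3% of all genes) and 8 in HIP against AKO rats (17.5% of all genes). In the latter, Vamp7 (adjusted p = 0.0131 with limma) and Stx2 (adjusted p = 0.0386 with limma) were below the adjusted threshold. So were 190 of 17012 genes in this setting, against 29 of 17092 over all HIP and AKO rats. This setting was chosen after the data were seen.

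**Figure D5:**
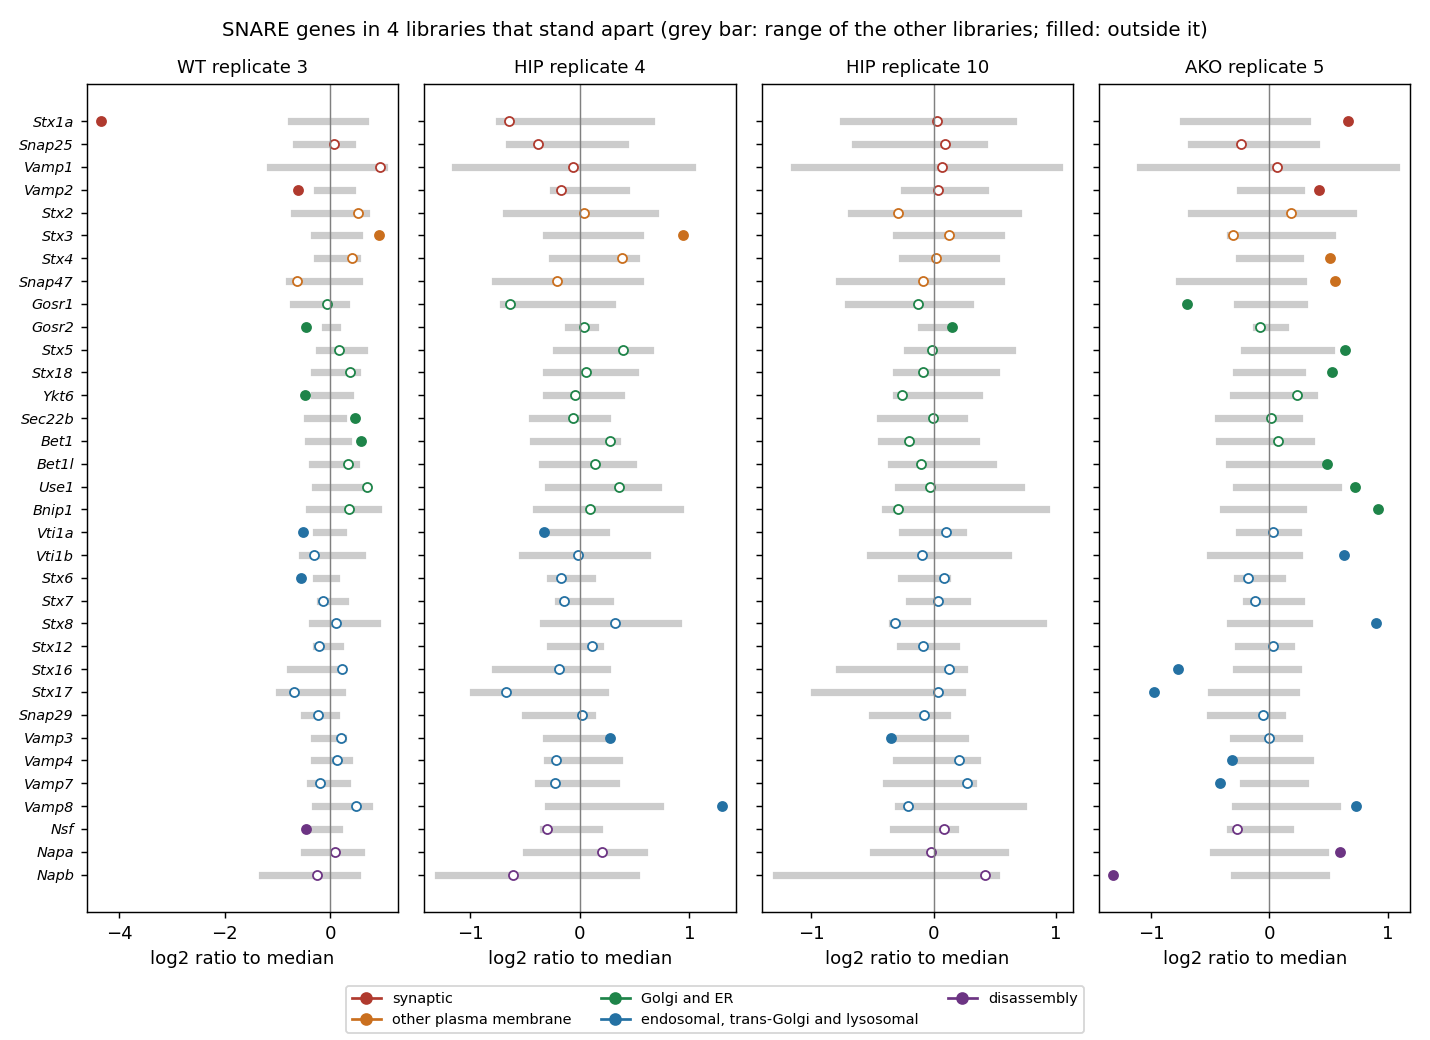
Log2 ratio of each of the 34 members in 4 libraries to the median of the other libraries without Gabra6 or Tph1 above 100, coloured by role. These others number 27, and 26 for AKO replicate 5, which is itself left out. Grey bars give the range of those libraries and filled points lie outside it. Stx1a in WT replicate 3 is at -4.35, and AKO replicate 5 has 13 members above and 6 below the bars.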

How the data were processed

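Brain RNA of 30 rats was sequenced from mRNA libraries (SMARTer kit). Per the submitters' processing notes, the authors used Partek 10.0.22.0228, Bowtie2, STAR 2.7.8a and DESeq2 with build rn7. The authors deposited DESeq2-normalized counts per gene, a signal that is corrected for library size. In each rat 84.5% to 87.2% of those below 100 were whole multiples (within 0.1 read) of the value of 1 read. Whole reads were therefore not recovered and no count test was run. The size factors assume that most genes do not differ.

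The main test was limma 3.58.1 (R 4.3.3, lmFit and eBayes with trend), two-sided, on log2(normalized count + 1), over genes whose mean level reached 1 in the rats of a comparison, with Benjamini-Hochberg adjustment over all of them. A fold change on this scale understates that of low genes. Correlations had 100000 permutations, two-sided, adjusted over 9 pairs (Python 3.11.15, numpy 2.4.6, scipy 1.17.1, pandas 2.3.3; figures with matplotlib 3.10.9). The fit was tested on simulated data. Groups came from the sample labels, and replicate numbers follow the order of the samples. Named were the 4 synaptic members, Gosr2, Vti1a, every member with an unadjusted p below 0.05 in a comparison or with a rat apart from its group, the 3 highest and 3 lowest members in each library with Gabra6 or Tph1 above 100, and the 3 partner genes with the smallest p per comparison. The members and lists were chosen with earlier results of these data known. Other pseudocounts, filters, scalings, weights, covariates and left-out rats were tried.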

Additional observations from a re-analysis of the deposited data

Results flagged for a closer look

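A member was singled out where the highest or lowest rat of a group of 10 lay far from its nearest neighbour, with a gap that, as a share of the spread from lowest to highest, passed the 95% limit given by Dixon. This happened 22 times in 102 sets, 34 members in 3 groups of 10, where chance gives about 1 in 20. By the same rule WT replicate 3 was apart in 20.6% of members, beside 24.1% of 10931 genes, and AKO replicate 5 in 29.4%, beside 15.0%. HIP replicate 4 was apart in 11.8% of members, beside 7.66%, and AKO replicate 1 in 2.94%, beside 6.50%. The count is therefore not read as a result about the members. The 3 sets of the synaptic minus Golgi and endosomal difference had no such rat. The sets are not independent, since all members were measured in the same libraries.

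In WT replicate 3, the library with cerebellar Gabra6, the lowest normalized counts of the group were those of Stx1a at 267.9 (others 3768 to 6634), Gosr2 at 1036 (others 1339 to 1471), Vti1a at 727.1 (others 915.1 to 1081) and Stx6 at 1370 (others 1823 to 2168). The highest were those of Sec22b at 2432 (others 1634 to 1960), Bet1 at 300.2 (others 185.7 to 236.8) and Use1 at 724.7 (others 379.6 to 516.6). In HIP replicate 4, the library with pineal Tph1, the lowest were Vti1a at 829.1 (others 1036 to 1232) and Nsf at 15509 (others 18378 to 21499), and the highest were Use1 at 569.2 (others 388.4 to 484.7) and Vamp8 at 453.8 (others 151.4 to 211.5).

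AKO replicate 5 was lowest in its group for Gosr1 at 190.1 (others 258.4 to 322.7), Vamp7 at 714.4 (others 815.4 to 911.5) and Napb at 2763 (others 5827 to 7992). It was highest for Vamp2 at 35744 (others 23587 to 29724), Stx4 at 738.7 (others 500.3 to 609.0), Stx18 at 976.8 (others 554.8 to 730.0), Bnip1 at 450.7 (others 181.5 to 271.1), Vti1b at 1616 (others 900.8 to 1169), Stx8 at 599.9 (others 267.9 to 371.6) and Napa at 7173 (others 3396 to 5301). In AKO replicate 1 the lowest value was that of Snap29 at 473.1 (others 645.1 to 722.7). The causes were not tested.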

How the results depend on the processing

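Counts are of members with an unadjusted p below 0.05. Left out 1 at a time, the rats gave 0 to 3 members in HIP against WT, beside 1.81% to 4.58% of all genes. They gave 1 to 4 in AKO against WT (7.68% to 11.6%) and 4 to 8 in HIP against AKO (9.69% to 17.6%). In the last comparison 0 to 1 members had an adjusted p below 0.05, beside 17 to 70 of all genes. The 3 and the 8 came without HIP replicate 4, where the shares of all genes were the highest as well, 4.58% and 17.6%. The 1 member in AKO against WT came without WT replicate 1, 4 or 6 or AKO replicate 2 or 3. Pseudocounts, filters on low values and 1 fit over all 30 rats left every count within 1.5 times its main value.

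In HIP against WT rats, quantile normalization and sample weights each gave 1 member (beside 2.58% and 5.18% of all genes), and leaving out the 3 libraries with Gabra6 or Tph1 gave 2 (3.78%), also with the marker covariates (6.36%). In AKO against WT rats, weights gave 11 (adjusted 2), beside 23% of all genes (adjusted, 857 of 17058). The covariates gave 1 (6.27%), AKO replicates 1 and 5 left out too 5 (12.3%), and KAH rats alone 0 (10.5%). In HIP against AKO rats, quantile normalization gave 3 (12.6%), the marker covariates 3 (4.39%) and AKO-numbered rats alone 3 (11.2%). Weights gave 10 (adjusted 4), beside 25.1% of all genes (adjusted, 1143 of 17092). The 3 libraries left out gave 7 (adjusted 1), beside 15.1% (adjusted, 44 of 17024). Estimated reads as a covariate gave 8 (adjusted 1), beside 18% (adjusted, 89 of 17024). AKO replicates 1 and 5 left out too gave 8 (adjusted 2), beside 17.5% (adjusted, 190 of 17012).

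Some log2 fold changes, none past the test, changed sign. In HIP against WT rats, Stx1a was at -0.12 with weights, -0.079 without the 3 libraries and -0.078 with the marker covariates, Vamp1 at 0.028 without the 3 libraries, and Gosr2 at -0.029 and Snap25 at -0.044 with estimated reads as a covariate. Left out 1 at a time, the rats gave -0.023 to 0.083 for Snap25, -0.12 to 0.39 for Stx1a and -0.22 to 0.017 for Vamp1. In AKO against WT rats, Vamp1 was at 0.048 and Vamp2 at -0.082 with the marker covariates, and Stx1a at -0.016 and Vamp2 at -0.0071 with AKO replicates 1 and 5 also left out. In HIP against AKO rats, Vamp2 was at -0.014 over all rats. It was at 0.080 with quantile normalization, 0.028 with weights, 0.0063 without the 3 libraries, 0.18 with the marker covariates (where Gosr2 was at -0.024), 0.070 with AKO replicates 1 and 5 also left out, 0.028 with AKO-numbered rats alone and -0.042 to 0.029 over single rats left out.

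Over all 30 libraries, the Pearson r was 0.19 for Snap25 and Stx1a and -0.039 for Stx5 and Gosr2. It was 0.74 for Stx6 and Vti1a (adjusted permutation p = 0.00063) and 0.53 for Stx18 and Use1 (adjusted permutation p = 0.0112). Without the 2 farthest rats it was 0.47 for Snap25 and Stx1a and -0.38 for Gosr1 and Bet1l. Within the 17 libraries with little Eomes it was -0.23 for Snap25 and Stx1a, -0.062 for Stx5 and Gosr2, -0.45 for Gosr1 and Bet1l, -0.040 for Stx6 and Vti1a and 0.70 for Nsf and Napb. Within the 10 with more it was 0.53 for Snap25 and Stx1a, 0.53 for Snap25 and Vamp2, 0.42 for Vamp1 and Vamp2, -0.49 for Gosr1 and Bet1l, 0.95 for Stx7 and Vti1b, 0.88 for Stx6 and Vti1a and -0.40 for Nsf and Napb. Without AKO replicates 1 and 5 it was 0.68 for Snap25 and Stx1a, -0.45 for Snap25 and Vamp2 and -0.54 for Vamp1 and Vamp2. Their adjusted permutation p-values were 0.00108, 0.0416 and 0.0157. For Stx7 and Vti1b it was 0.47 (adjusted permutation p = 0.0355) and for Stx6 and Vti1a 0.64 (adjusted permutation p = 0.00283). For Gosr1 and Bet1l it was -0.27 and for Nsf and Napb -0.26. The causes were not tested.

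The covariates and the settings that leave out AKO replicates 1 and 5 or split libraries by Eomes were chosen after seeing the data. No paired analysis was possible because replicate numbers only follow the order of the samples. Since whole reads were recovered for only part of the values, no counting error is given.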
